A study of Mus musculus with 240 samples.

Results

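Serotonin (5-hydroxytryptamine) receptors were examined in 3 brain regions of the 8 inbred founder strains of the Collaborative Cross. The genes were the 10 receptor genes Htr1a, Htr1b, Htr1d, Htr2a, Htr2c, Htr3a, Htr4, Htr5a, Htr6 and Htr7, taken by name from the deposited count table of 55414 genes and matched by gene identifier to the deposited expression table. All 10 were among the 14785 genes that the authors kept, so each could be tested in every region. The authors had removed genes with low counts, genes with a very high count in a sample, and non-chromosomal genes.

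Serotonin is released in the forebrain by axons of neurons in the raphe nuclei of the brainstem, and acts there on receptors carried by many kinds of neuron. All of its receptors except the 5-HT3 type couple to G proteins. The 5-HT1 and 5-HT5 receptors act mainly through Gi/o and lower cyclic AMP, the 5-HT2 receptors act through Gq and phospholipase C, and the 5-HT4, 5-HT6 and 5-HT7 receptors act through Gs and raise cyclic AMP, while the 5-HT3 receptor is an ion channel gated directly by serotonin. Receptor mRNA is found in the cell body, whereas the protein of a receptor such as 5-HT1B is placed largely on axon terminals that may lie in another region.

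The animals were 48 ethanol-naive mice, 3 females and 3 males of each of C57BL/6J (B6), PWK/PhJ (PWK), A/J (AJ), CAST/EiJ (CAST), NOD/LtJ (NOD), NZO/HILtJ (NZO), 129S1/SvImJ (S129) and WSB/EiJ (WSB), all inbred, untreated and carrying no engineered allele. Their age is 8 weeks in the deposited description and somewhat older in the methods of the study. Central amygdala (CeA), nucleus accumbens core (NAcc) and prelimbic cortex (PrL) were punched by hand from frozen brain slices of each mouse, and polyadenylated RNA was sequenced. The study grouped B6 and PWK as strains of high ethanol preference and the other 6 as strains of low preference; the mice measured here did not drink, so preference is a property of the strain. Each mouse is a separate animal, and each library belonged to 1 of 3 sequencing trays.

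The libraries used (48 CeA, 47 NAcc and 48 PrL) held 14942820 to 33951616 counts, with a median of 24456928, and 1 NAcc library of B6 was left out by the authors. Levels are given in CPM, the counts of a gene scaled to a fixed library total and for composition by the TMM method. Striatal medium spiny neuron genes (8 genes such as Drd1, Drd2 and Ppp1r1b) summed to medians of 1197 CPM in CeA, 4154 in NAcc and 249 in PrL, and 8 genes of pallial glutamatergic neurons to 1284, 62.7 and 2903 CPM. The 7 genes listed for the central amygdala summed to 848 CPM in CeA but 1181 in NAcc, so they did not set the CeA punch apart from NAcc. In 21 of the libraries (6 CeA, 8 NAcc, 7 PrL) the summed level of the list for the region's own neurons (central amygdala, striatal or pallial) lay more than 4-fold below its regional median, or that of a list for another tissue lay more than 4-fold above it. The lists for other tissues were those of diencephalic and olfactory bulb neurons everywhere, of pallial neurons in CeA and NAcc, of striatal neurons in CeA and PrL, and of the central amygdala in PrL. The olfactory bulb list was added after the values were seen. Results that rest on these libraries are given with and without them. In bulk tissue, fewer cells of a type and less RNA per cell cannot be told apart.

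The promoters of 3 receptor genes on which the results below turn are shown first, as the 250 bases before each transcription start in RefSeq (build GRCm38.p6, reference B6 sequence). They are given because Htr1b and Htr1d both followed the level of striatal genes across CeA and NAcc libraries, and because Htr7 had the most called pairs of strains in PrL. Capitals mark matches, on either strand, to GGGCGG (the box bound by Sp1), CCAAT, and TGACG, the core of the cyclic AMP response element; matches to GGGCGG are found in 32.7%, to CCAAT in 33.8% and to TGACG in 17.8% of 32851 mouse promoters of the same length.
Htr1b, chr9:81633833-81634082, minus strand: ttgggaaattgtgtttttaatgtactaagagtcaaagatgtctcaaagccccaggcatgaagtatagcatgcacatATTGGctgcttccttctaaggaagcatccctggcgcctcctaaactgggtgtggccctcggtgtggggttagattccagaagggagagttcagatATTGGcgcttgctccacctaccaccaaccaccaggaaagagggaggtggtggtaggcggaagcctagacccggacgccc
Htr1d, first start, chr4:136423274-136423523, plus strand: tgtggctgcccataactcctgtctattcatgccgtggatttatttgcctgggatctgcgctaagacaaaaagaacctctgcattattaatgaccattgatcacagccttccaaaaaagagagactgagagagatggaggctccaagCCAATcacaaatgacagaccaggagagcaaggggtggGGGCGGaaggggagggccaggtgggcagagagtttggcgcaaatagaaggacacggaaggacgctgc
Htr1d, other start, chr4:136424362-136424611, plus strand: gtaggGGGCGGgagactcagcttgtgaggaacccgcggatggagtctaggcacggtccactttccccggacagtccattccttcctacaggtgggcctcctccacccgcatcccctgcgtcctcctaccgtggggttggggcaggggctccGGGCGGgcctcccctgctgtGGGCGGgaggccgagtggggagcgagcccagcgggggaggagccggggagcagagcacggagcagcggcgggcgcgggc
Htr7, chr19:36057361-36057610, minus strand: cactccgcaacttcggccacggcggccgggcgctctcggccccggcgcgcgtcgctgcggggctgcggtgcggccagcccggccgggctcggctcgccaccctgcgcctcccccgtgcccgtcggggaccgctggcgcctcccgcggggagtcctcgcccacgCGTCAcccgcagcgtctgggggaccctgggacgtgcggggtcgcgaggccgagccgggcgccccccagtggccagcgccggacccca
The Htr1b sequence held CCAAT 2 times, read on the other strand as ATTGG, and 6 CpG dinucleotides, the median number over all promoters. The first Htr1d start had 1 match each to GGGCGG and CCAAT and likewise 6 CpG, whereas the other start had 3 matches to GGGCGG and 20 CpG. The Htr7 sequence held 41 CpG, more than 98.9% of mouse promoters, and 1 match to TGACG, read as CGTCA. No match to TATAAA or to the full response element TGACGTCA was found in these 4 windows. These matches describe the letters of the windows and were not tied to the levels by any test.

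Per kilobase of exon, which allows levels to be set beside each other between genes, Htr2c was the most abundant receptor mRNA of CeA and NAcc and Htr2a that of PrL. The mean of the 8 strain means for Htr2c, the Gq-coupled receptor known for its extensive mRNA editing, was 19.6 CPM per kb in CeA, 17.8 in NAcc and 4.27 in PrL. Htr1b, a Gi/o-coupled receptor that restrains transmitter release, followed with 8.39 in CeA and 13.3 in NAcc, and stood at 3.46 CPM per kb in PrL. Htr2a, the cortical Gq-coupled receptor through which psychedelic drugs act, reached 10.4 CPM per kb in PrL against 4.70 in CeA and 4.64 in NAcc.
Htr5a (Gi/o), Htr1a (the Gi/o-coupled autoreceptor of the raphe and a hyperpolarizing receptor of cortical neurons) and Htr7 (Gs) had between 3.31 and 6.69 CPM per kb in each region. The lowest level in CeA was that of Htr6, at 2.06 CPM per kb, in NAcc that of Htr3a, at 1.10, and in PrL that of Htr1d, at 0.221. In 9 of the 48 PrL libraries Htr1d had 3 counts or fewer, so its PrL level is close to the floor of detection. Exons of Htr1b overlap those of D430036J16Rik, an antisense gene, and whether counting used the strand is not given in the sources used here. The antisense gene had medians of 6.81, 12.0 and 3.59 CPM in CeA, NAcc and PrL.

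**Figure D1:**
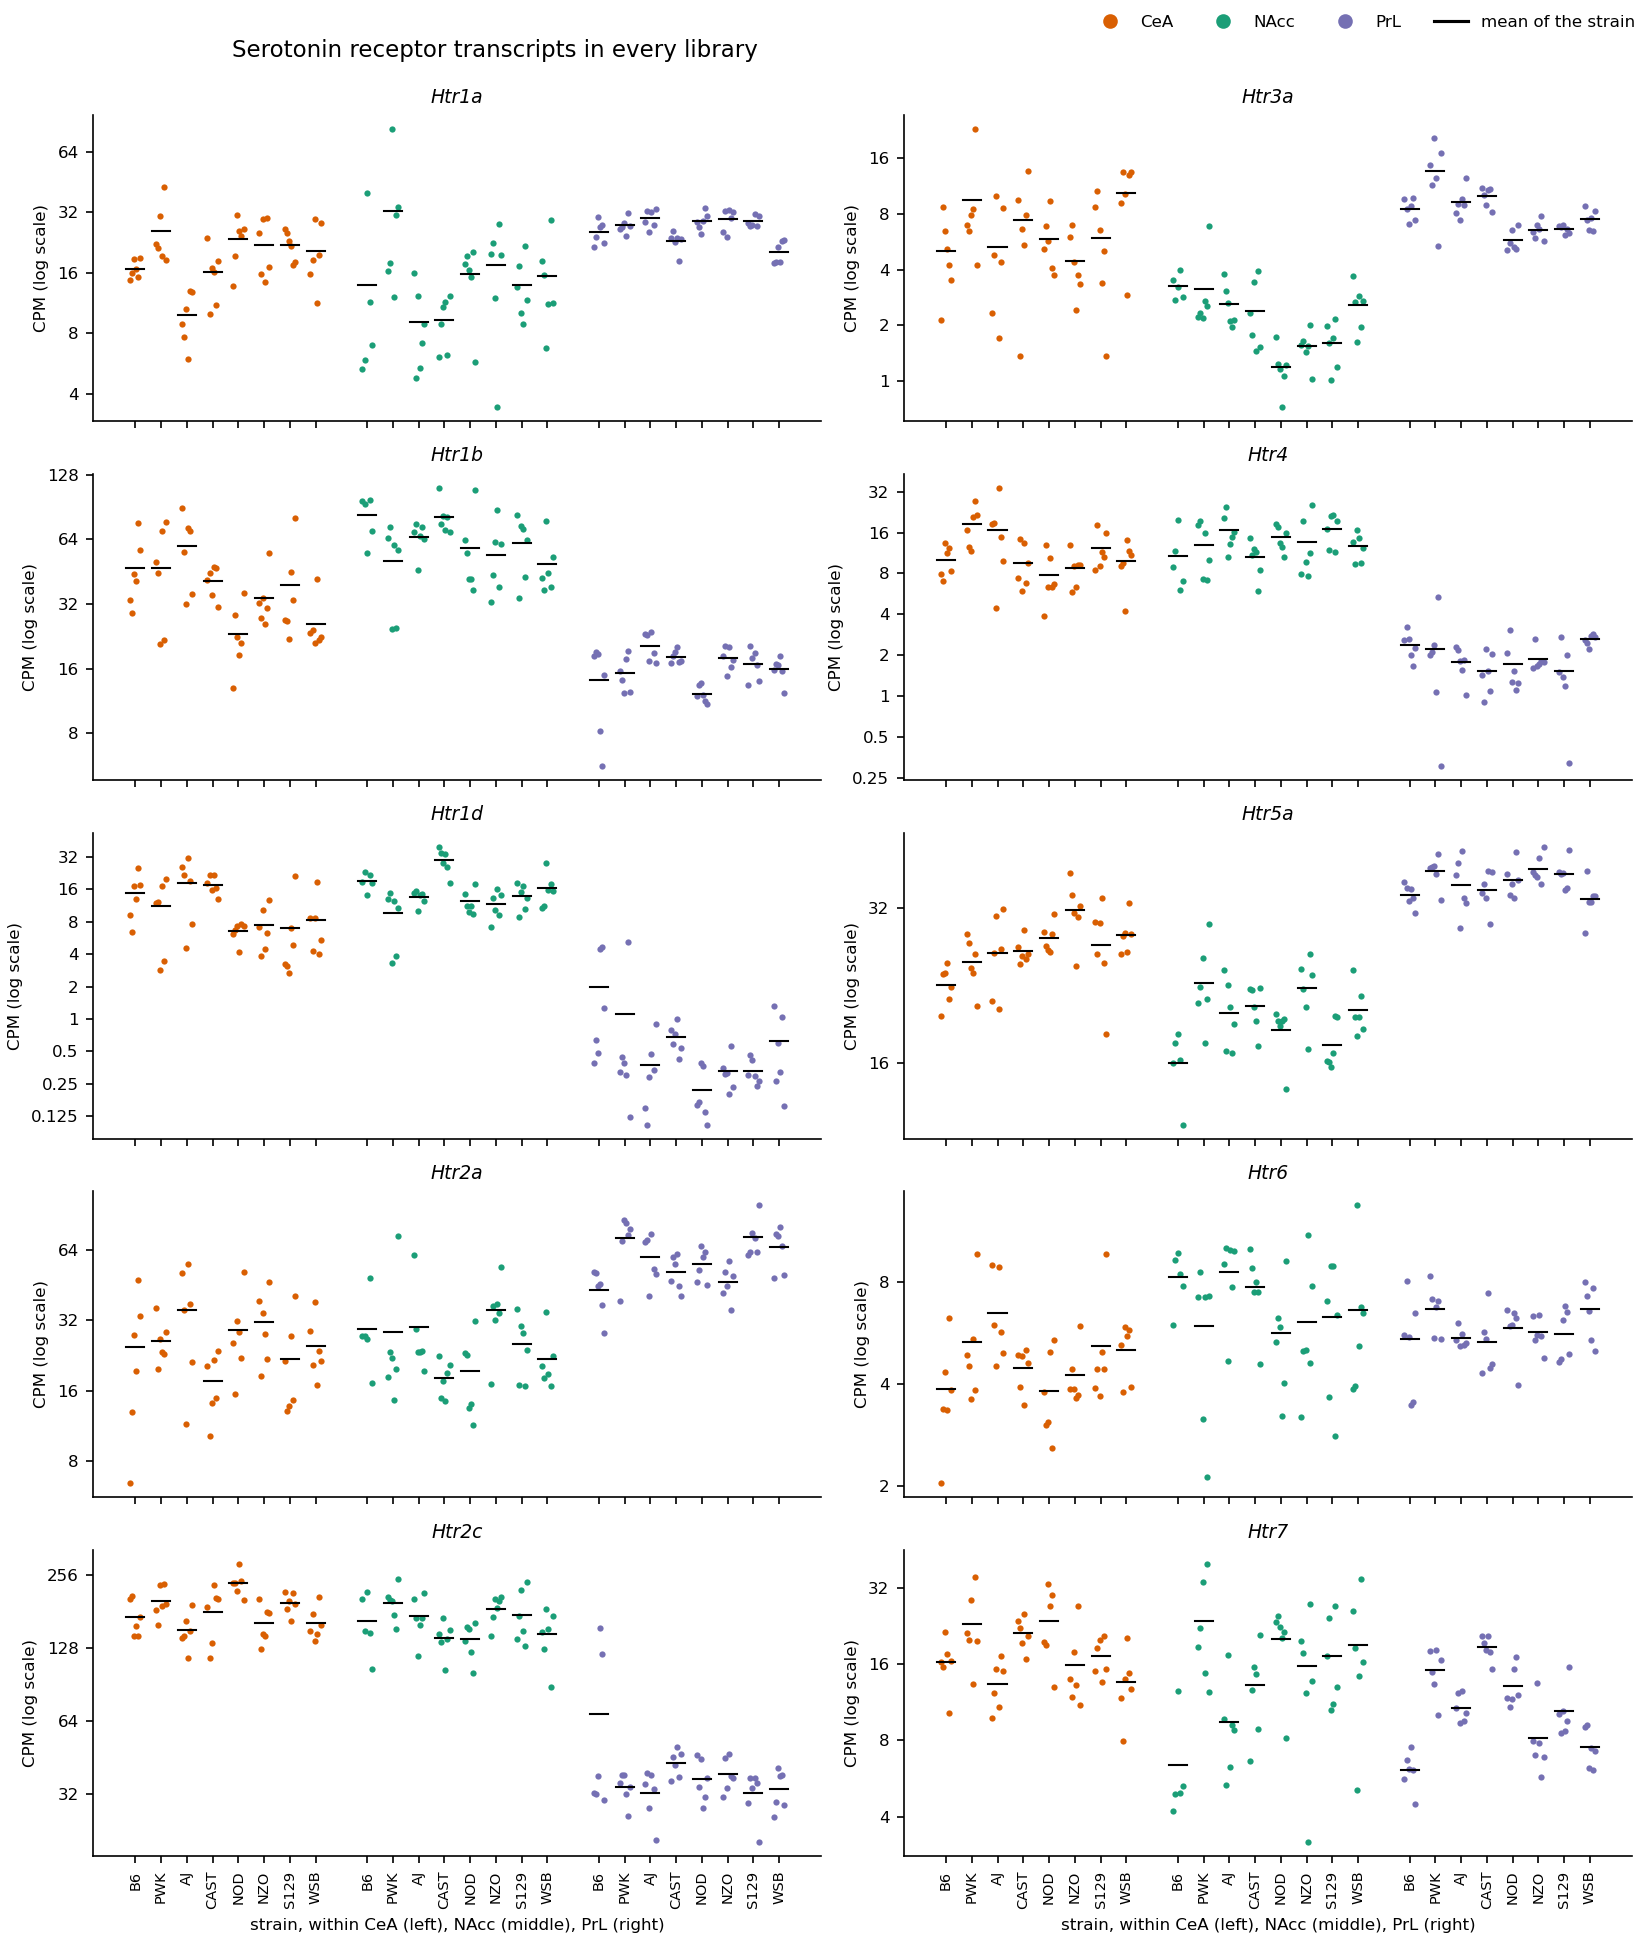
Level of each of the 10 receptor mRNAs in every library (CPM, log scale; 1 panel a gene; strains along the horizontal axis, colours for the 3 regions; bars are strain means). The regions separate more than the strains for Htr1b, Htr1d, Htr2c and Htr4, where PrL lies lowest, while Htr7 in PrL runs from a mean of 6.10 CPM in B6 to 18.7 in CAST.

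The comparison between regions asked how the receptor profile of each punch differed, over all strains, with the 3 samples of a mouse joined in one fit. Of the 10 receptors, 9 differed between PrL and NAcc, 10 between PrL and CeA and 9 between CeA and NAcc, against 82.8%, 74.4% and 69.8% of all genes tested. In PrL against NAcc, 4 receptors were higher and 5 lower (38.6% and 44.3% of all genes), in PrL against CeA 5 and 5 (35.3% and 39.1%), and in CeA against NAcc 5 and 4 (33.5% and 36.2%). The median absolute log2 difference of the receptors was 1.57, 0.942 and 0.463, against 0.262, 0.169 and 0.138 over all genes. The 3 comparisons share samples, so they are given side by side. All 28 of these differences had the same sign within each of the 3 trays and passed the test without the libraries that stand apart.

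Among the Gi/o-coupled receptors, Htr1b and Htr1d were low in PrL, and Htr1a and Htr5a were high there. Htr1b ranged over 12.96 to 90.1 CPM in CeA (median 33.7), 24.5 to 111 in NAcc (median 63.9) and 5.62 to 23.6 in PrL (median 17.0). Every PrL library lay below every NAcc library, and PrL was the lower of the pair in 48 of 48 mice when set against CeA. The difference between PrL and NAcc was -1.89 ± 0.10 (log2, SE), 3.71-fold lower in PrL, with an adjusted p of 3.77e-37, and that between CeA and NAcc was -0.72 ± 0.08 (adjusted p = 1.06e-13).
Htr1d, a close relative of Htr1b and a target of the triptan drugs, had medians of 8.67 CPM in CeA, 14.5 in NAcc and 0.376 in PrL, with a PrL range of 0.105 to 5.17. Only 1 mouse, PWK mouse 40, had a PrL level above those of its own NAcc and CeA, and its PrL punch held 2270 summed CPM of striatal genes against a median of 249. The PrL level was 31.3-fold below NAcc (log2 -4.97 ± 0.35, adjusted p = 4.99e-26) and 20.4-fold below CeA (log2 -4.35 ± 0.35, adjusted p = 1.9e-22), the largest regional differences of the family.
Htr1a had medians of 18.5, 12.2 and 27.1 CPM in CeA, NAcc and PrL, and its PrL level exceeded that of NAcc in 42 of 47 mice (log2 1.00 ± 0.10, adjusted p = 5.14e-16), although the ranges overlapped. Htr5a had medians of 26.5, 19.6 and 35.9 CPM. It was higher in PrL than in NAcc in 47 of 47 mice, by 0.88 ± 0.04 on the log2 scale (adjusted p = 3.64e-47), and higher in PrL than in CeA in 47 of 48 mice.

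The Gq-coupled receptors went in opposite directions. Htr2c ranged over 117 to 285 CPM in CeA (median 185), 88.5 to 246 in NAcc (median 159) and 20.2 to 155 in PrL (median 36.6). PrL was the lowest region in every mouse, and the ranges met only through B6 mice 25 and 33, the highest of PrL. The log2 difference was -2.12 ± 0.07 against NAcc (adjusted p = 3.8e-57) and -2.28 ± 0.07 against CeA (adjusted p = 2.47e-60). CeA exceeded NAcc by 0.16 ± 0.07 (adjusted p = 0.0242), with CeA the higher in 24 of 47 mice. Genes of the choroid plexus, a tissue known for very high Htr2c, were abundant in some CeA libraries: in the 10 CeA libraries with over 1000 summed CPM of 9 choroid plexus genes, Htr2c had a median of 207 CPM and reached 285, against a median of 175 and a maximum of 242 CPM in the other 38. The part of these cells in the CeA level was not tested.
Htr2a was higher in PrL (28.2 to 98.9 CPM, median 56.4) than in NAcc (11.4 to 73.0, median 22.7) in 45 of 47 mice and than in CeA (6.44 to 55.7, median 23.5) in 45 of 48 mice. The ranges overlapped, and the log2 differences were 1.24 ± 0.09 in each case. Between CeA and NAcc the difference was 0.01 (95% interval -0.18 to 0.20, adjusted p = 0.946), and CeA was the higher in 24 of 47 mice.

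Htr3a, which encodes the subunit that every 5-HT3 channel requires, had medians of 6.19 CPM in CeA, 2.12 in NAcc and 7.49 in PrL. PrL exceeded NAcc in 47 of 47 mice, by 1.92 ± 0.15 (log2, adjusted p = 4.55e-24), and CeA exceeded NAcc by 1.43 ± 0.15 (adjusted p = 4.55e-16). A list of 7 other genes used for the interneuron class that carries this receptor summed to medians of 430, 347 and 802 CPM in the same order of regions. The genes were Vip, Lamp5, Ndnf, Reln, Cck, Prox1 and Adarb2. Such a sum follows its most abundant genes, whether each is confined to that class was not checked, and a link to Htr3a was not tested.

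The Gs-coupled receptors also differed in their regional pattern. Htr4 was lowest in PrL in every mouse, with medians of 10.4 CPM in CeA, 12.6 in NAcc and 1.92 in PrL and no overlap between PrL (0.305 to 5.39) and NAcc (5.91 to 25.5). Its log2 difference was -2.85 ± 0.17 against NAcc (adjusted p = 6.64e-33) and -2.56 ± 0.16 against CeA (adjusted p = 2.78e-29). Htr6, a receptor enriched in striatal neurons, had medians of 4.48, 7.24 and 5.63 CPM. It was 1.39-fold lower in CeA than in NAcc (adjusted p = 4.72e-07) and 1.26-fold higher in PrL than in CeA (adjusted p = 0.000465), whereas PrL against NAcc gave -0.14 (95% interval -0.31 to 0.02, adjusted p = 0.111). Htr7 fell in the order CeA, NAcc, PrL, with medians of 17.0, 14.7 and 10.2 CPM, and its log2 differences of -0.71 ± 0.11 (PrL against CeA), -0.36 ± 0.11 (PrL against NAcc) and 0.35 ± 0.10 (CeA against NAcc) passed the test with overlapping ranges.

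**Figure D2:**
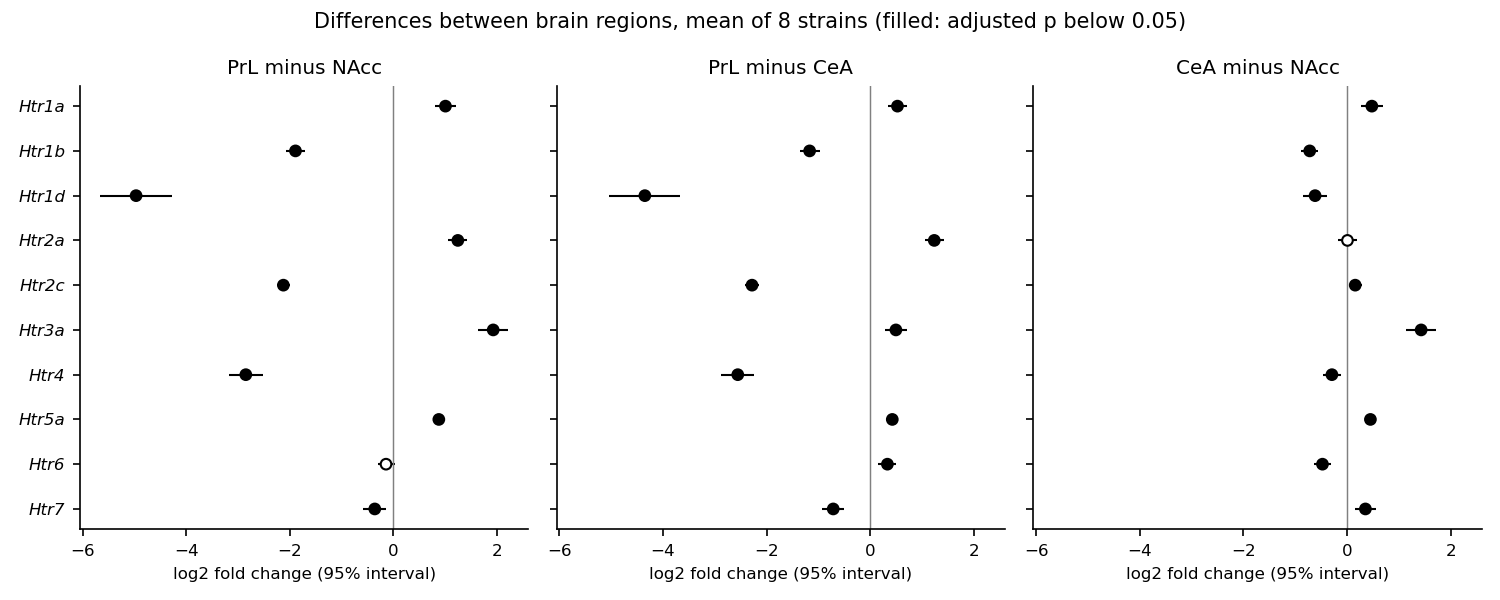
Log2 difference of each receptor between regions with its 95% interval (3 comparisons; filled points have an adjusted p below 0.05). Htr1d, Htr4, Htr2c and Htr1b lie to the left in both comparisons with PrL, Htr2a, Htr3a, Htr1a and Htr5a to the right, and only Htr2a (CeA against NAcc) and Htr6 (PrL against NAcc) are open points.

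Within a region, the level of several receptors followed the level of striatal neuron genes. The striatal score averaged the log2 CPM of the 8 striatal genes, and 30 relations (10 receptors in 3 regions) were computed on the residuals left after strain, sex and tray. The points are libraries, which share the dissection of their region. In CeA (48 libraries) the Pearson r was 0.947 for Htr1d (Spearman rho 0.939), 0.919 for Htr1b (rho 0.924), 0.685 for Htr6 (rho 0.706) and 0.683 for Htr2a (rho 0.627). Each had a permutation p of 1e-05, the smallest that 100000 permutations allow (adjusted p = 2.73e-05 for r and 3e-05 for rho). In NAcc (47 libraries) r was 0.941 for Htr1d (rho 0.924), 0.916 for Htr1b (rho 0.902) and 0.898 for Htr6 (rho 0.895), again at the smallest permutation p. Htr4 was more weakly related in CeA (r = 0.470, adjusted permutation p = 0.00159) and NAcc (r = 0.473, adjusted permutation p = 0.00164). Its r was 0.350 and 0.406 without the 2 libraries farthest from the median score. For Htr2a in NAcc, r was 0.441 (adjusted permutation p = 0.00326).
In CeA, r was negative for Htr3a (r = -0.609, rho -0.547, adjusted permutation p = 2.73e-05 for r), Htr2c (r = -0.552, rho -0.536, adjusted permutation p = 1e-04) and Htr5a (r = -0.403, rho -0.377, adjusted permutation p = 0.0071), at -0.567, -0.493 and -0.305 without the 2 libraries farthest from the median score. Negative relations were found in NAcc for Htr7 (r = -0.716, rho -0.719) and Htr1a (r = -0.628, rho -0.608), both at the smallest permutation p, and for Htr5a (r = -0.417, rho -0.441, adjusted permutation p = 0.00641). Without the 2 libraries farthest from the median score, r in NAcc was 0.921 for Htr1d, 0.904 for Htr1b, 0.899 for Htr6, -0.735 for Htr7, -0.603 for Htr1a and -0.446 for Htr5a. In PrL, Htr1d was related to the score with r = 0.739 (rho 0.606, permutation p = 1e-05), which was 0.574 without the 2 farthest libraries. Htr3a was negatively related there (r = -0.621, rho -0.318, adjusted permutation p = 0.000715 for r), with r = -0.377 without those 2. Htr1b (r = -0.148, adjusted permutation p = 0.306) and Htr6 (r = -0.118, adjusted permutation p = 0.441) missed the threshold in PrL. The summed striatal level also differed among strains in CeA, where its median was 4909 CPM in AJ and 498 CPM in NOD, the strains with the highest and lowest mean Htr1b, Htr1d and Htr6 in that region. Strain values of Htr1b, Htr1d and Htr6 in CeA therefore stand beside a difference in striatal content, and its part in them was not tested beyond the fits with the score as a covariate.

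**Figure D3:**
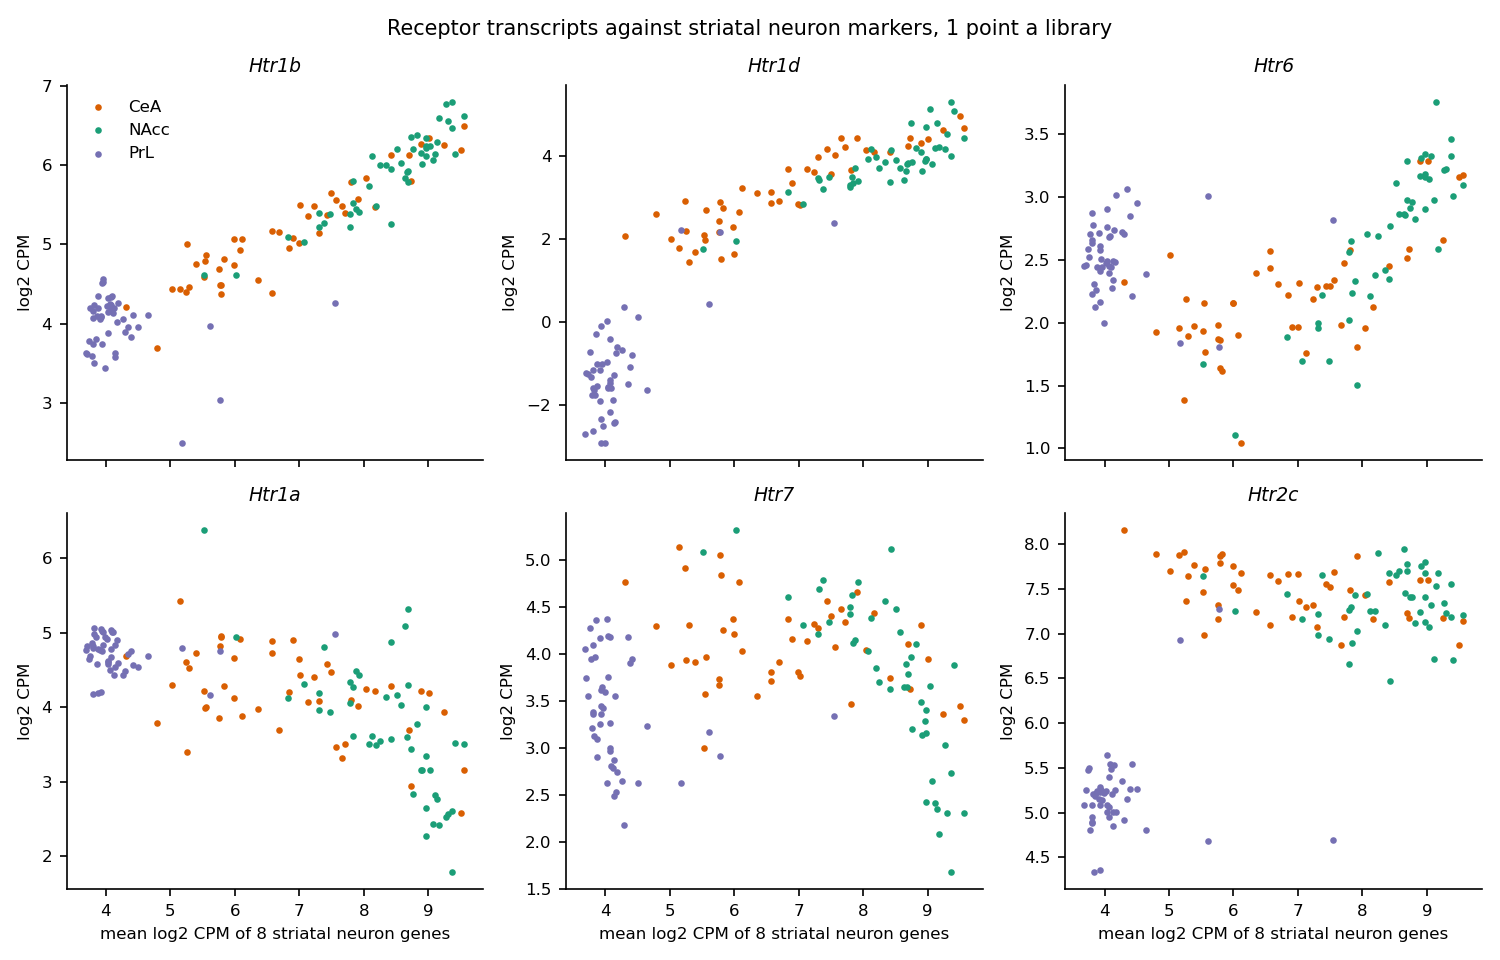
Log2 CPM of 6 receptors against the striatal score, an average of log2 CPM over 8 striatal genes (1 point a library, coloured by region). Htr1b, Htr1d and Htr6 climb with the score within CeA and NAcc, Htr1a and Htr7 decline with it in NAcc, and Htr2c shows no single line across the regions.

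The comparison between strains asked whether the receptors differed among the 8 founders in each region. Of the 10 receptors, 8 differed in CeA, 8 in NAcc and 7 in PrL by limma's moderated F test, against 80.8%, 76% and 84.1% of all genes, so the share of receptors was near that of the genes at large. Of the 280 contrasts between pairs of strains for the 10 receptors, 55 (19.6%) passed in CeA, 55 (19.6%) in NAcc and 72 (25.7%) in PrL, against 28.9%, 26% and 33.1% over all genes. The genes with the most called pairs were Htr7 in PrL (19 of 28), Htr3a in NAcc and PrL (13 of 28 in each) and Htr1a in PrL (12 of 28). When the strains were ordered by their mean, neighbours were rarely distinct: 1 of 70 neighbouring steps passed in CeA, the step from CAST to AJ for Htr1a, and 0 of 70 passed in either of the other regions. Genes with a strain that differed from all 7 others in the same direction made up 19.2%, 17.7% and 27% of all genes in CeA, NAcc and PrL, and among the receptors there was 1 such case, the low AJ level of Htr1a in CeA, where low cases made up 10.6% of all genes.

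Htr7, the Gs-coupled receptor named in circadian and mood-related work, had the smallest F test p of the family in PrL (adjusted p = 2.27e-11) and the most called pairs of strains there. The order of the means in PrL was CAST 18.7 ± 1.98 CPM (SD, n = 6), PWK 15.2 ± 3.12, NOD 13.1 ± 2.49, AJ 10.8 ± 1.35, S129 10.5 ± 2.61, NZO 8.14 ± 2.73, WSB 7.56 ± 1.33 and B6 6.10 ± 1.02. B6 mice had 4.50, 6.14 and 7.52 CPM (lowest, median and highest), CAST mice 15.4, 18.7 and 20.6, and no B6 mouse reached the lowest CAST or PWK mouse (10.1 CPM). The B6 level was 0.322 of that of CAST (log2 -1.64 ± 0.16, adjusted p = 3.69e-11) and 0.409 of that of PWK (log2 -1.29 ± 0.17, adjusted p = 2.67e-08). Against its neighbours NZO (log2 -0.41, adjusted p = 0.0764) and WSB (log2 -0.32, adjusted p = 0.184) the B6 difference missed the threshold.
In NAcc the strain with the lowest mean Htr7 was again B6, with 4.21, 4.94 and 12.5 CPM in 5 mice, and the highest was PWK, with 12.5, 20.5 and 39.8 CPM. The difference of B6 passed against PWK (log2 -1.92 ± 0.50, adjusted p = 0.00351), NOD (-1.73 ± 0.51, adjusted p = 0.00899), S129 (-1.46 ± 0.51, adjusted p = 0.0302) and WSB (-1.45 ± 0.51, adjusted p = 0.0308), and missed it against AJ, CAST and NZO. In CeA the Htr7 means lay between 13.4 CPM in AJ and 23.6 in NOD, and B6, at 16.3 ± 3.63 CPM, was within that range. Among the NAcc libraries, B6 had the highest median striatal level of the 8 strains, 6234 summed CPM, and PWK mice 24 and 40 had 429 and 631, while Htr7 declined with the striatal score in NAcc (r = -0.716). With the score as a covariate the F test of Htr7 in NAcc gave an adjusted p of 0.0763, and the difference of B6 from the low strains was -0.80 (adjusted p = 0.0379). With 3 marker scores (striatal, pallial and diencephalic) as covariates these were 0.0906 and -0.41 (adjusted p = 0.175). Without the libraries that stand apart they were 0.0916 and -1.56 (adjusted p = 0.0483).

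Htr3a differed among strains in NAcc (F test adjusted p = 0.000106) and PrL (4.43e-06), but not past the threshold in CeA (0.157). In CeA the F test gave 0.00736 with the striatal score as a covariate, 8.47e-05 with the 3 marker scores, and 0.157 without the libraries that stand apart. In PrL, PWK mice had 5.34, 13.5 and 20.5 CPM (lowest, median and highest) and NOD mice 5.09, 5.42 and 6.96, so 1 PWK mouse (mouse 40) fell among the NOD values and the others lay above them. PWK exceeded NOD 2.14-fold (log2 1.10 ± 0.18, adjusted p = 5.69e-06) and passed against each low strain except CAST (log2 0.30 ± 0.16, adjusted p = 0.159). In NAcc the means ran from 1.19 ± 0.33 CPM in NOD to 3.26 ± 0.50 in B6 (n = 5), and every B6 mouse (2.73 to 3.96 CPM) lay above every NOD mouse (0.726 to 1.74 CPM).

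Htr1a differed in all 3 regions (adjusted p of the F test 8.15e-05 in CeA, 0.0381 in NAcc and 6.09e-07 in PrL). The NAcc value was 0.0687 without the libraries that stand apart and 0.292 with the striatal score as a covariate, so that call was lost in both. In CeA, AJ mice had 5.96, 9.69 and 12.9 CPM, and their mean of 9.80 ± 2.82 was below those of the other strains, which ran from 16.0 in CAST to 25.7 ± 9.38 in PWK. AJ was lower than each of the 7 others, by 0.67 to 1.34 on the log2 scale with a largest adjusted p of 0.0423, although CAST and WSB mice overlapped it. This call was lost without the libraries that stand apart. In PrL the strain with the lowest mean was WSB, at 20.3 ± 2.59 CPM, and AJ had the highest, at 29.9 ± 3.12, with all WSB mice (17.8 to 23.2 CPM) below all AJ mice (25.6 to 33.2 CPM). WSB passed the test against each strain except CAST (log2 0.19 ± 0.09 for CAST minus WSB, adjusted p = 0.126), so AJ took opposite ends of the order in CeA and PrL.

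Htr1b means ranged from 23.2 ± 8.02 CPM in NOD to 59.4 ± 22.6 in AJ in CeA, and from 12.2 ± 1.12 in NOD to 20.4 ± 3.09 in AJ in PrL. All NOD mice (10.9 to 13.7 CPM) lay below all AJ mice (16.9 to 23.6 CPM) in PrL, with a log2 difference of 0.74 ± 0.16 for AJ minus NOD (adjusted p = 0.000303). Htr1d was highest in CAST in NAcc, with 18.2, 31.0 and 39.9 CPM against 3.34, 11.6 and 14.9 in PWK, and the ranges of these strains did not overlap. CAST passed against each strain but B6 (log2 -0.62 ± 0.25 for B6 minus CAST, adjusted p = 0.0666), and with the striatal score as a covariate it passed against all 7 others. In PrL, where Htr1d had few counts, its means were 1.99 ± 2.02 CPM in B6, 1.13 ± 1.98 in PWK and at most 0.676 in the other strains.
Htr5a differed among strains in all 3 regions, with the highest mean over the lowest at 1.40 in CeA (NZO 31.8 ± 4.21, B6 22.7 ± 1.97 CPM), 1.43 in NAcc and 1.15 in PrL. These were the smallest ratios of the family in CeA and PrL.

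Htr2a differed among strains in PrL (F test adjusted p = 0.00011) and NAcc (0.0307). In PrL, S129 mice had 60.8, 67.3 and 98.9 CPM and B6 mice 28.2, 45.2 and 51.4, with no overlap between them, and the means were 72.1 ± 14.4 and 43.0 ± 8.93 CPM. Htr2c, on the X chromosome, differed in CeA (F test adjusted p = 0.000474) and NAcc (0.00469). NOD had the highest CeA mean, 237 ± 27.7 CPM, and AJ the lowest, 152 ± 25.3, and every NOD mouse (202 to 285 CPM) lay above every AJ mouse (117 to 192 CPM), with a log2 difference of -0.65 ± 0.13 for AJ minus NOD (adjusted p = 0.00012). The median striatal level of CeA was 498 summed CPM in NOD and 4909 in AJ, and Htr2c declined with the striatal score there. With the score as a covariate the F test of Htr2c in CeA gave an adjusted p of 0.00113, and the part of striatal content in the levels of NOD and AJ was not tested beyond that.
NOD and S129 also had the highest median choroid plexus level in CeA, 777 and 2090 summed CPM against 21.4 to 121 in the other strains, and the part of this in the NOD level was not tested. In PrL the F test gave 0.117 for Htr2c, and 0.0401 without the libraries that stand apart. It gave 0.114 with the striatal score as a covariate and 0.0158 with the 3 marker scores.

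Htr4 differed among strains in CeA (F test adjusted p = 0.00258; the test gave 0.097 in NAcc and 0.0926 in PrL), with PWK mice at 11.6, 18.8 and 27.4 CPM and NOD mice at 3.87, 6.52 and 12.9. Only NOD mouse 15 (12.9 CPM) reached into the PWK range, and the log2 difference for PWK minus NOD was 1.30 ± 0.30 (adjusted p = 0.000997). Without the libraries that stand apart, the adjusted p of the F test of Htr4 was 0.0131 in CeA, 0.0165 in NAcc and 0.00729 in PrL. With the striatal score as a covariate it was 0.0132, 0.00621 and 0.376. The median striatal level of CeA was 1710 summed CPM in PWK and 498 in NOD. Its part in the Htr4 levels was not tested beyond that fit. Htr6 differed in CeA (F test adjusted p = 0.0326) between AJ, at 6.51 ± 1.96 CPM, and B6 (3.87 ± 1.41), NOD (3.82 ± 1.14) and NZO (4.25 ± 0.88), and the test gave 0.249 in NAcc and 0.207 in PrL. Without the libraries that stand apart, among them AJ mice 5, 13 and 29, the F test of Htr6 in CeA gave 0.0562. With the striatal score as a covariate it gave 0.00399.

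The comparison of high with low preference asked whether B6, or PWK, differed from the mean of the 6 low strains. Of the 10 receptors, B6 differed in 1 in CeA, 3 in NAcc and 5 in PrL, against 41%, 32.2% and 37.6% of all genes, and PWK in 3, 5 and 3, against 39.2%, 38.7% and 47.1%. By direction, B6 had 1 receptor lower in CeA (18.8% of all genes), 1 higher and 2 lower in NAcc (17.3% and 14.9%) and 2 higher and 3 lower in PrL (18.2% and 19.3%), and PWK had 3 higher in CeA (20.1%), 4 higher and 1 lower in NAcc (20% and 18.7%) and 3 higher in PrL (23.9%). The shares of receptors were at or below those of all genes except in the B6 contrast in PrL and the PWK contrast in NAcc. The B6 and PWK contrasts share the low strains, so their values are given side by side. Of the 20 called values, 19 had the same sign in each of the 3 trays, the exception being Htr2c for B6 in PrL.

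Htr7 was the receptor with the firmest B6 difference. In PrL, B6 mice had 4.50 to 7.52 CPM, against a median of 10.3 CPM over 36 low-strain mice, 29 of which lay above the whole B6 range and 0 below it. The B6 level was 0.557 of the low-strain mean (log2 -0.85 ± 0.14, adjusted p = 2.73e-06), and -0.92 (adjusted p = 1.18e-06) without the libraries that stand apart. PWK differed in the other direction, with 10.1 to 18.2 CPM (median 15.8) and a log2 difference of 0.45 ± 0.11 (adjusted p = 0.00129), or 0.61 (adjusted p = 2.15e-05) without those libraries.
In NAcc, the log2 difference of B6 for Htr7 was -1.27 ± 0.44 (adjusted p = 0.0236), with 23 of 36 low-strain mice above the B6 range and 1 below it. This call was lost when B6 mouse 9, 17, 33 or 41 was left out (log2 -1.13 to -1.27, adjusted p from 0.051 to 0.0815), and without mouse 25 the difference was -1.64 (adjusted p = 0.0146). In CeA the difference of PWK was 0.40 ± 0.15 (adjusted p = 0.03) for Htr7, and 0.35 (adjusted p = 0.0829) without the libraries that stand apart.

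Htr3a was higher in PWK than in the low strains in PrL, at 5.34 to 20.5 CPM (median 13.5) against 5.09 to 12.4 (median 6.96), by 0.72 ± 0.12 (log2, adjusted p = 6.83e-06). The lowest PWK value belonged to mouse 40, the PrL library rich in striatal genes. Without the libraries that stand apart the difference was 0.98 (adjusted p = 6.25e-11), and PWK then differed from each of the 7 other strains. In NAcc, Htr3a was higher in B6 (2.73 to 3.96 CPM, with 30 of 36 low-strain mice below that range) by 0.78 ± 0.20 (adjusted p = 0.00207) and in PWK by 0.61 ± 0.19 (adjusted p = 0.00897). Without the libraries that stand apart these were 0.66 (adjusted p = 0.028) and 0.41 (adjusted p = 0.197). With the striatal score as a covariate they were 0.78 (adjusted p = 0.00388) and 0.61 (adjusted p = 0.0143). With the 3 marker scores both calls were lost, at 0.33 (adjusted p = 0.273) and 0.41 (adjusted p = 0.0925). In CeA the PWK difference of Htr3a missed the threshold, at 0.51 (adjusted p = 0.209). It was 0.68 (adjusted p = 0.0331) with the striatal score and 0.86 (adjusted p = 0.00146) with the 3 scores.

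Of the Gi/o-coupled receptors, Htr5a was lower in B6 in CeA and NAcc. In CeA, B6 mice had 19.7 to 25.1 CPM and 30 of 36 low-strain mice lay above them, with a log2 difference of -0.30 ± 0.08 (adjusted p = 0.00485). In NAcc, 26 of 36 lay above the B6 range of 12.1 to 18.2 CPM, with a difference of -0.32 ± 0.10 (adjusted p = 0.00779). Both calls held without the libraries that stand apart, at -0.32 (adjusted p = 0.000341) and -0.38 (adjusted p = 0.0155). With the striatal score as a covariate they were -0.26 (adjusted p = 0.00827) and -0.24 (adjusted p = 0.0388). With the 3 marker scores the CeA call was lost, at -0.15 (adjusted p = 0.0839), and the NAcc value was -0.33 (adjusted p = 0.00476).
Htr1a was higher in PWK in CeA (log2 0.47 ± 0.16, adjusted p = 0.0196; 18.5 to 42.7 CPM with 19 of 36 low-strain mice below that range) and in NAcc (1.13 ± 0.31, adjusted p = 0.00409; 12.1 to 82.8 CPM). The 82.8 CPM belonged to PWK mouse 24, whose NAcc punch had 429 summed CPM of striatal genes against a regional median of 4154, and mouse 40 had 631. Those mice also had the lowest Htr1d of the strain in NAcc, 3.34 and 3.86 CPM, where PWK was 0.80 ± 0.23 lower than the low strains on the log2 scale (adjusted p = 0.00649). With the striatal score as a covariate, the PWK differences in NAcc were 0.68 (adjusted p = 0.0323) for Htr1a and -0.37 (adjusted p = 0.00053) for Htr1d. With the 3 marker scores they were 0.48 (adjusted p = 0.0622) and -0.33 (adjusted p = 0.00234). Without the libraries that stand apart, the PWK differences in NAcc were 0.44 (adjusted p = 0.373) for Htr1a and -0.16 (adjusted p = 0.65) for Htr1d, and 0 of the 5 receptors called for PWK in NAcc still passed. PWK mice 24, 40 and 48 were among the libraries left out, so fewer PWK mice remained. For Htr2c the PWK difference in NAcc was 0.32 ± 0.11 (adjusted p = 0.018) with all libraries and 0.29 ± 0.14 (adjusted p = 0.134) without those. With the striatal score as a covariate it was 0.37 (adjusted p = 0.00779). For Htr5a it was 0.20 ± 0.08 (adjusted p = 0.0431), and 0.06 (adjusted p = 0.728) without those libraries.

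In PrL, the B6 differences of Htr1b and Htr2c rested on few libraries. That of Htr1d was smaller without the libraries that stand apart but still passed. Htr2c was 155 CPM in B6 mouse 25 and 121 in mouse 33, but 30.2 to 37.9 CPM in the other 4 B6 mice, against 20.2 to 49.9 in the low strains. The same mice had the lowest Htr1b of the strain, 8.21 and 5.62 CPM against 14.9 to 19.2, and the highest Htr1d, 4.49 and 4.65 CPM against 0.392 to 1.25. Their PrL punches held 388 and 274 summed CPM of 8 olfactory bulb genes, against a regional median of 20.8. With all libraries the log2 differences of B6 were 0.56 ± 0.19 for Htr2c (adjusted p = 0.0154), -0.31 ± 0.12 for Htr1b (adjusted p = 0.0352) and 1.58 ± 0.42 for Htr1d (adjusted p = 0.00228). Without the libraries that stand apart they were -0.13 (adjusted p = 0.408), 0.05 (adjusted p = 0.633) and 0.77 (adjusted p = 0.0493).
Htr2a in PrL was lower in B6 by 0.44 ± 0.12 on the log2 scale (adjusted p = 0.00288; 28.2 to 51.4 CPM, with 22 of 36 low-strain mice above that range), and was -0.45 (adjusted p = 0.0157) without those libraries. PWK was higher by 0.29 ± 0.12 (adjusted p = 0.0455), and 0.19 (adjusted p = 0.32) without them.

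Htr4 in CeA was higher in PWK, at 11.6 to 27.4 CPM (median 18.8) against 3.87 to 34.1 (median 9.57), with 24 of 36 low-strain mice below the PWK range and 1 above it. The log2 difference was 0.85 ± 0.21 (adjusted p = 0.00124), and 0.91 (adjusted p = 0.000714) without the libraries that stand apart. In PrL the B6 difference of Htr4 was 0.48 ± 0.23 (adjusted p = 0.0901) with all libraries and 0.61 (adjusted p = 0.0205) without those that stand apart. Htr6 passed in neither strain with all libraries, the nearest value being -0.38 ± 0.18 for B6 in CeA (adjusted p = 0.0975), which was -0.46 (adjusted p = 0.0177) without them.

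**Figure D4:**
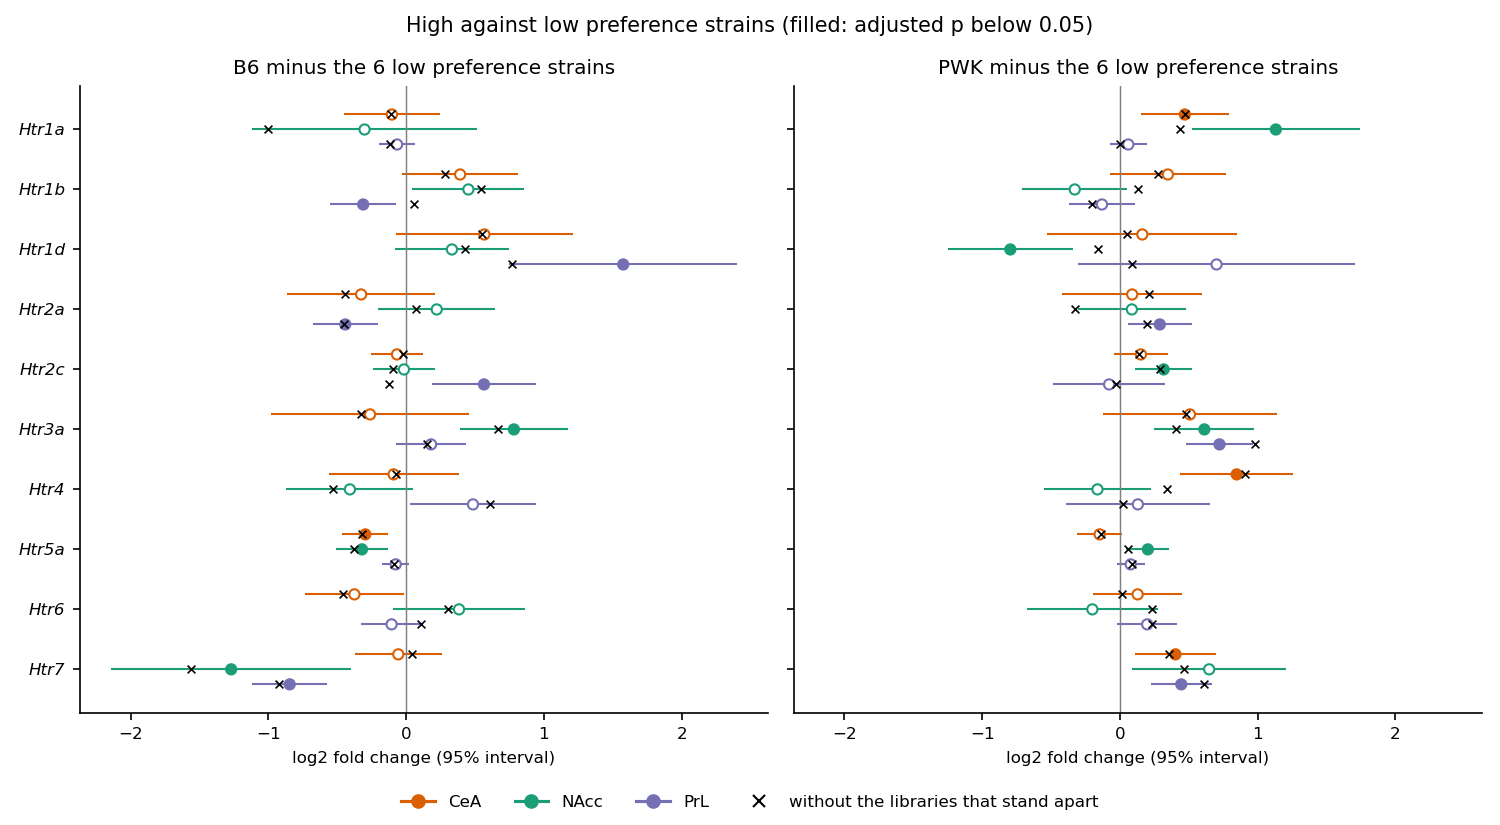
Log2 difference of B6 and of PWK from the mean of the 6 low strains for each receptor and region, with 95% intervals (crosses, without the libraries that stand apart). Htr7 in PrL lies at -0.85 for B6 and 0.45 for PWK with its crosses farther out, while the crosses of Htr2c and Htr1b for B6 in PrL fall near 0.

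**Figure D5:**
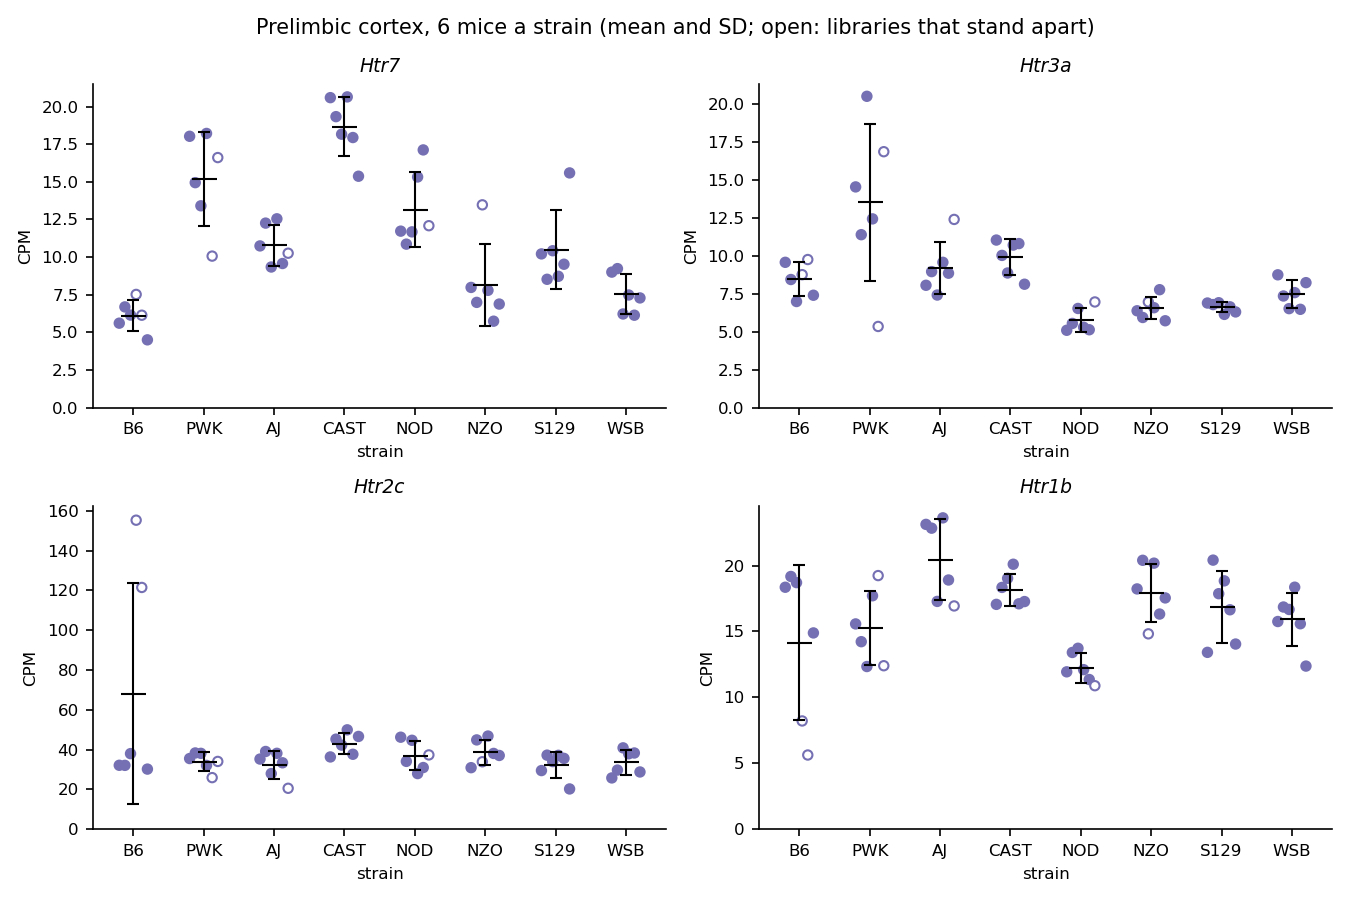
CPM of Htr7, Htr3a, Htr2c and Htr1b in PrL for each mouse, by strain, with the mean and SD (open points, libraries that stand apart). The B6 mice form the lowest group for Htr7, and the Htr2c values of 155 and 121 CPM in B6 are open points.

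The strain pattern also depended on the region. The test of strain by region was called for 8 of the 10 receptors, against 39.6% of all genes, with adjusted p from 0.00184 (Htr2c) to 0.0466 (Htr1d), while Htr3a (0.163) and Htr6 (0.135) missed the threshold. Without the libraries that stand apart it was called for 5, namely Htr1a, Htr2a, Htr2c, Htr4 and Htr7. Differences of the B6 or PWK contrast between 2 regions were tested directly in 60 cases, of which 5 passed, where 12.9% (B6) and 4.55% (PWK) of the tests over all genes passed. The PWK difference of Htr4 was larger in CeA than in NAcc by 1.03 (log2, adjusted p = 0.00461), and the B6 difference of Htr7 was more negative in NAcc than in CeA by 1.20 (adjusted p = 0.0324). Of the 5, only the B6 difference of Htr7 between CeA and NAcc passed without the libraries that stand apart, at 1.59 (adjusted p = 0.0214), while that of PWK for Htr4 was 0.58 (adjusted p = 0.142). The others were Htr2c for B6 between PrL and CeA, 0.63 with all libraries and -0.09 without those that stand apart (adjusted p = 0.795), Htr1a for PWK between PrL and NAcc, -1.05 and -0.42 (adjusted p = 0.469), and Htr5a for PWK between CeA and NAcc, -0.35 and -0.19 (adjusted p = 0.337). The Htr7 value of 1.59 left out B6 mice 25 and 33 in NAcc, and mouse 25 had the highest B6 level there, 12.5 CPM. The B6 call of Htr7 in NAcc was itself lost when mouse 9, 17, 33 or 41 was left out.

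No difference between the sexes was called for a receptor in any region by limma (0 of 10 in each, against 0.135%, 0.0812% and 0.0947% of all genes). At an unadjusted p below 0.05 there were 4 in CeA and 0 in NAcc and PrL, and the smallest adjusted p was 0.491, 0.914 and 0.723. The share of all genes at that unadjusted threshold was not computed, so the 4 are not read as a sex difference.

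The other genes of serotonin signalling were read from lists, which describe the setting of the receptors. Of 4 other receptor genes, Htr1f alone was in the expression table, and it was higher in PrL than in NAcc (log2 0.27, adjusted p = 0.00265), lower in PrL than in CeA (-0.33, adjusted p = 5.67e-05) and higher in PWK than in the low strains in PrL (0.45, adjusted p = 0.00469). The defining genes of serotonergic neurons (Tph2, the synthetic enzyme, Slc6a4, the reuptake transporter, and the factor Fev) summed to medians of only 0.660, 0.568 and 0.638 CPM, and the cell bodies of these neurons are known to lie in the brainstem.
Of 10 genes of synthesis, packaging, uptake and breakdown, 6 were tested, and 1 was higher and 5 were lower in PrL than in NAcc, where 38.6% of all genes were higher and 44.3% lower. Ddc, which completes serotonin and dopamine synthesis, differed by -2.38 and Slc18a2, the vesicular monoamine transporter, by -2.87, while Maob, a monoamine oxidase, was the one that was higher (0.41). PrL against CeA gave 1 higher and 4 lower (35.3% and 39.1% of all genes), and CeA against NAcc 2 higher and 2 lower (33.5% and 36.2%). Strain differences were called by the F test for 3 of the 6 in CeA, 5 in NAcc and 5 in PrL, beside 80.8%, 76% and 84.1% of all genes. Of the 6, B6 was higher in 2, 1 and 1 and lower in 0, 0 and 1 in CeA, NAcc and PrL. PWK was higher in 1, 1 and 2 and lower in 1, 1 and 1. Over all genes, B6 differed in 41%, 32.2% and 37.6% and PWK in 39.2%, 38.7% and 47.1%. Slc18a2, with a median of 1.47 CPM in CeA, was higher in B6 there (log2 1.44, adjusted p = 0.00166). Slc22a3, a low-affinity monoamine transporter, was lower in B6 in PrL (log2 -1.12, adjusted p = 6.21e-07), and Slc29a4, another such transporter, was lower in PWK there (-0.80, adjusted p = 0.000261). Maoa, the other monoamine oxidase, was higher in PWK in CeA, NAcc and PrL (0.34, 0.45 and 0.31), and Maob was higher in B6 in all 3 (0.59, 0.35 and 0.25). In PWK, Maob was lower in CeA (-0.27, adjusted p = 0.0163) and NAcc (-0.30, adjusted p = 0.0164) and higher in PrL (0.33, adjusted p = 0.000358).

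Among the transducers, all 4 tested Gq genes, 3 of 5 Gi/o genes and 1 of 2 Gs genes were higher in PrL than in NAcc, and 1 Gi/o and 1 Gs gene were lower, beside 38.6% of all genes higher and 44.3% lower. The Gs gene that was lower was Gnal, the striatal G protein that couples receptors to adenylyl cyclase, at -1.66. The other Gs genes listed, Gnas, Adcy1 and Adcy5, were not in the expression table and were not tested. Their medians were 1082, 235 and 1306 CPM in NAcc and 1554, 1689 and 206 CPM in PrL. Of 6 genes of receptor partners, 5 were higher and 1 lower in PrL than in NAcc, with S100a10, a partner of 5-HT1B and 5-HT4 receptors, at 1.45. In PrL against CeA, 3 Gq, 2 Gi/o and 1 Gs gene and 3 partners were higher, and 1 Gi/o gene, 1 Gs gene and 1 partner were lower (35.3% and 39.1% of all genes). In CeA against NAcc, 3 Gq, 3 Gi/o and 1 Gs gene and 3 partners were higher, and 1 Gi/o gene, 1 Gs gene and 1 partner were lower (33.5% and 36.2%). F tests among strains in CeA, NAcc and PrL were called for 5, 3 and 3 of the 5 Gi/o genes, 4, 4 and 2 of the 4 Gq genes, 1, 2 and 1 of the 2 Gs genes and 5, 6 and 4 of the 6 partners, beside 80.8%, 76% and 84.1% of all genes. Strains that differed from all 7 others in the same direction were found for Gnai2 (B6, low), Gnao1 (B6, high), Arrb1 (B6, high) and Mpdz (PWK, high) in NAcc, and for S100a10 (CAST, low) and Ric3 (WSB, low) in PrL. Genes with such a strain made up 17.7% of all genes in NAcc and 27% in PrL.

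Genes whose pattern was most like that of each receptor were read as correlations over all libraries of the 3 regions, after centring within each region. These points share their dissection, depth and strain, and no test was made. The closest were Dscam (r = 0.787) and Syt13 (0.783) for Htr1a, Tomm70a (0.838) and Foxp1 (0.837) for Htr1b, and Rgs9 (0.796) and Cd4 (0.784) for Htr1d, Rgs9 being one of the 8 striatal genes. For the Gq-coupled receptors they were Lmtk2 (0.730) and Atxn1 (0.684) for Htr2a, and Rasa1 (0.598) and Dcx (0.573) for Htr2c. Htr3a was closest to Nfib (0.621) and Arhgap21 (0.615), and Htr5a to Slc6a17 (0.685) and Dnajc6 (0.667). For the Gs-coupled receptors they were Runx1t1 (0.530) and Cftr (0.527) for Htr4, Slc8a2 (0.803) and Plcl2 (0.802) for Htr6, and Adcy7 (0.800) and Grin2d (0.791) for Htr7. Within the family the largest values were 0.651 for Htr1b with Htr6, 0.609 for Htr1a with Htr7 and -0.540 for Htr1a with Htr1b.
Without the centring, so that the difference between regions entered, the closest genes were Dscam (0.849) and Syt13 (0.845) for Htr1a, Ric8b (0.945) and Rem2 (0.936) for Htr1b, and Penk (0.966) and Sv2c (0.955) for Htr1d. They were Lmtk2 (0.873) for Htr2a, Arhgap6 (0.944) and Doc2b (0.932) for Htr2c, 6330403L08Rik (0.848) and Brinp2 (0.848) for Htr3a, and Doc2b (0.908) and Dchs2 (0.892) for Htr4. For Htr5a they were Slc6a17 (0.922) and Kcnj9 (0.914), for Htr6 Plcl2 (0.815) and Lzts3 (0.806), and for Htr7 Slc35g2 (0.792) and Grin2d (0.780).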

How the data were processed

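Bulk RNA-seq of 3 brain regions from 48 mice was analysed. Per the labels, reads were trimmed with Trimmomatic, aligned with STAR 2.7.3a and counted per gene by the authors on GRCm39, who used edgeR 3.38.1 and limma 3.52.2. The authors deposited raw gene counts of 240 sequencing runs and log2 CPM of 14785 genes in 143 libraries (TMM scaling, prior count 0.5), which the counts returned within 5e-06. Strand use in counting is not given in the sources used here.

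From the counts, limma-voom (limma 3.58.1, edgeR 4.0.16, R 4.3.3) was fitted to all 14785 genes in each region with strain, sex and tray. The 28 contrasts between strains were adjusted together by Benjamini-Hochberg, as were the B6 and PWK contrasts with the mean of the 6 low strains, and the threshold was an adjusted p of 0.05. Regions and strain by region were tested in a joint fit with mouse as a block, since the samples of a mouse come from 1 animal (median correlation of their deviations 0.00961 to 0.0552). The methods were tested on simulated data. The 10 genes, the other serotonin genes and the marker lists were chosen with earlier results of these data known; all 10 members are named, and the other genes by list, by largest region difference, by unique strain call or by likeness. CPM per kb used exon lengths of GENCODE vM21. Alternatives covered edgeR, DESeq2 1.42.0, normalization, filters, covariates, runs, weights, single trays and libraries left out. The median SE of a contrast of strains was 0.11, 0.116 and 0.0865 (log2) in CeA, NAcc and PrL. SEs and intervals come from the fits and hold the spread between animals, whereas the floor of 3 counts covers counting error only. The NAcc library of B6 mouse 1 was left out, as by the authors. For Htr2a, 1 of the genes chosen by likeness is not reported here.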

Additional observations from a re-analysis of the deposited data

Results flagged for a closer look

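Of 240 groups of 5 or 6 mice of a strain in a region, 23 held a mouse whose gap to its nearest neighbour was unusually wide for the range of the group (Dixon's test). Chance alone gives about 1 such group in 20, and the causes were not tested. For the Gi/o-coupled receptors these were Htr1a in NOD mouse 47 in NAcc (5.75 CPM) and CAST mouse 36 in PrL (18.3 CPM). For Htr1b they were NZO mouse 42 (55.1 CPM) and WSB mouse 27 (42.0 CPM) in CeA, and AJ mouse 21 (45.9 CPM) and CAST mouse 4 (111 CPM) in NAcc. For Htr1d they were NOD mouse 31 in CeA (4.19 CPM) and PWK mouse 40 in PrL (5.17 CPM), and for Htr5a NOD mouse 47 in NAcc (14.2 CPM). For Htr2a they were PWK mouse 48 (73.0 CPM) and AJ mouse 5 (60.9 CPM) in NAcc and PWK mouse 8 in PrL (38.6 CPM). For Htr3a they were WSB mouse 27 in CeA (2.90 CPM) and PWK mouse 48 in NAcc (6.82 CPM). For Htr4 they were WSB mouse 19 in CeA (4.25 CPM) and NZO mouse 10 in PrL (2.64 CPM), and for Htr6 S129 mouse 46 in CeA (9.72 CPM), AJ mouse 21 in NAcc (4.68 CPM) and NOD mouse 47 in PrL (3.98 CPM). For Htr7 they were B6 mouse 25 (12.5 CPM), NOD mouse 47 (8.15 CPM) and NZO mouse 26 (3.17 CPM) in NAcc, and S129 mouse 46 in PrL (15.6 CPM).

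The strain pattern differed between regions by the interaction test (limma) for Htr1a (adjusted p = 0.0112), Htr1b (0.024), Htr1d (0.0466), Htr2a (0.0375), Htr2c (0.00184), Htr4 (0.0136), Htr5a (0.0275) and Htr7 (0.00687). The difference of B6 from the low strains was greater in PrL than in CeA by 0.63 (log2) for Htr2c (adjusted p = 0.0301), and greater in CeA than in NAcc by 1.20 for Htr7 (adjusted p = 0.0324). The difference of PWK changed by -1.05 from NAcc to PrL for Htr1a (adjusted p = 0.00954). From NAcc to CeA it changed by 1.03 for Htr4 (adjusted p = 0.00461) and by -0.35 for Htr5a (adjusted p = 0.0246).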

How the results depend on the processing

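Of 1780 values for single receptors under alternative settings, 1638 kept their direction and their side of the threshold, 112 lost the call, 25 gained it and 5 turned. The 5 that turned were B6 against the low strains in PrL: Htr2c was -0.34 within tray 1, -0.13 without the libraries that stand apart and -0.061 with 3 marker scores as covariates, and Htr1b was 0.054 and 0.086 under the last 2. The settings on marker scores and on libraries that stand apart were chosen after the data were seen. The largest shift of the median of all genes was -0.0378, with no filter. Leaving out the replicate block (mouse) from the joint fit of the paired regions changed none of its 30 region calls (main 9, 10 and 9; without the block 9, 10 and 9).

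Counts of calls that moved by more than 1.5 times were as follows. Within a single tray, where each strain had few mice, the F test called 0, 3 and 0 receptors in CeA (trays 1, 2 and 3), 0, 0 and 0 in NAcc, and 3 and 2 in PrL (trays 2 and 3). Contrasts between strains numbered 1, 14 and 3 in CeA, 0, 1 and 0 in NAcc and 31, 17 and 10 in PrL. B6 calls were 0 in each tray in CeA and NAcc and 2, 1 and 0 in PrL. PWK calls were 1, 0 and 1 in CeA, 0 in each in NAcc, and 0 and 1 in PrL (trays 1 and 3). The interaction and the tests between 2 regions gave 0 in each tray, CeA against NAcc gave 4 in tray 1, and the unique AJ call in CeA was 0 in each. Quality weights gave 89 contrasts between strains in CeA and 104 in NAcc, B6 calls of 3, 5 and 3 in CeA, NAcc and PrL, and 10 tests between 2 regions. edgeR gave 10 of the latter and limma-trend 8. Without a tray term PWK had 3 calls in NAcc and the interaction 5, which was also 5 with 144 libraries. Without the libraries that stand apart there were 2 B6 calls in CeA, 0 PWK calls in NAcc, 5 interactions and 1 test between 2 regions. With the striatal score there were 2 B6 and 5 PWK calls in CeA, 5 interactions and 3 tests between 2 regions, and with 3 scores 2 PWK calls in NAcc and 1 test. Leaving out 1 B6 mouse in NAcc gave 1 to 5 B6 calls there, 5 without mouse 25 and 1 without mouse 41.

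Strains that differed from all others numbered 0 in CeA with no filter, no sex term, without the libraries that stand apart and with either set of scores. In NAcc there was 1 with 144 libraries, the other run, quality weights or either set of scores. In PrL there was 1 with edgeR, DESeq2, no sex term, without the libraries that stand apart, with the striatal score or with adjustment within each contrast, and 2 with runs summed, quality weights or 3 scores. The causes of these changes were not tested, beyond the smaller number of mice in a tray. Depth limits Htr1d in PrL, where 9 libraries had 3 counts or fewer.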
